A study of Homo sapiens with 59 samples.

Results

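The Iroquois homeobox genes IRX1, IRX2, IRX3, IRX4, IRX5 and IRX6 were followed in neural stem cells derived from the established human embryonic stem cell line WA09 (H9). They were taken by symbol from the deposited table and make up 6 of its 19084 genes. All groups share 1 cell line, FGF8b at 200 ng per mL before CHIR99021, and 4 days of retinoic acid after it. The groups differ in the length of exposure to CHIR99021, which inhibits GSK3 and so turns on beta-catenin signalling, and whose dose is not in the labels used here. The 20 exposures run from 2 h to 24 h in steps of 2 h and on to 72 h in steps of 6 h. By these labels every library followed the retinoic acid, so none was taken during CHIR99021. Rose, fell, changed and course below compare lengths of exposure, not moments in a culture. Each has 3 libraries, which carry the replicate labels A1, A2 and B1, but for 48 h with 2, for 59 libraries in all. Below, 2 to 8 h is called the early window, 18 to 24 h the first-day window, 30 to 48 h the second-day window and 54 to 72 h the late window, with 12 libraries each except the second-day window, which has 11. A longer exposure was also a longer culture, and cells without CHIR99021 were not analysed here, so exposure and culture time cannot be told apart. No label says that the replicates came from different cultures; the p-values then reflect the spread of these libraries alone, and that spread could be technical.

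Iroquois genes encode transcription factors of the TALE homeobox class, named after a gene complex that patterns the body wall in Drosophila. In mammals they lie in a pair of clusters, IRX1, IRX2 and IRX4 on human chromosome 5 and IRX3, IRX5 and IRX6 on chromosome 16. In the vertebrate neural tube they help to divide the brain from front to back and the spinal cord from back to belly, largely by mutual repression with other homeobox genes.

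The values are TPM, which are scaled by transcript length and to 1 total per library. Levels of different genes can therefore be set side by side, while how deeply each library was sequenced is unknown. The number of genes that reached 1 TPM was 9348 to 13085 per library. It was under 10000 in 3 libraries (B1 of 4 h, B1 of 42 h and A2 of 72 h) and at least 11004 in the others. As a check of the label, the summed TPM of 10 neural progenitor markers was taken. It was 970.6 to 1512 in the early window, 1876 to 2219 in the first-day window, 1578 to 2718 in the second-day window and 1715 to 2526 in the late window. None of the 10 was at 0 throughout a window. In the early window 11 epithelium and surface ectoderm markers summed to 1416 to 3867 TPM, so the markers of those libraries were mixed.

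The family was carried by IRX2 and IRX1, with IRX3 at a low level and the others mostly at 0. IRX2 was above 0 in all 59 libraries, with a lowest value of 29.8, a median of 134 and a highest of 223 TPM. Only 6.76% of all genes in the table had a higher mean TPM. IRX1 had a median of 84.9 and a highest value of 175 TPM, and was above 0 in 58 libraries. The exception was the 42 h B1 library, where it is listed at 0. IRX3 had a median of 4.57 and a highest value of 20.5 TPM, and was listed at 0 in 9 libraries. IRX5, IRX6 and IRX4 had medians of 0 TPM and were above 0 in 17, 6 and 4 libraries, so the order among these 3 genes cannot be read from their levels. The order of the upper 3 was steadier. IRX2 exceeded IRX3 in 59 of 59 libraries, IRX1 exceeded IRX3 in 57, and IRX2 exceeded IRX1 in 56. The 3 libraries in which IRX1 was the higher were 8 h B1 (40.2 TPM for IRX1 and 29.8 TPM for IRX2), 16 h A1 (78.9 and 72.7 TPM in that order) and 48 h A1 (163 and 145 TPM in that order).

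**Figure D1:**
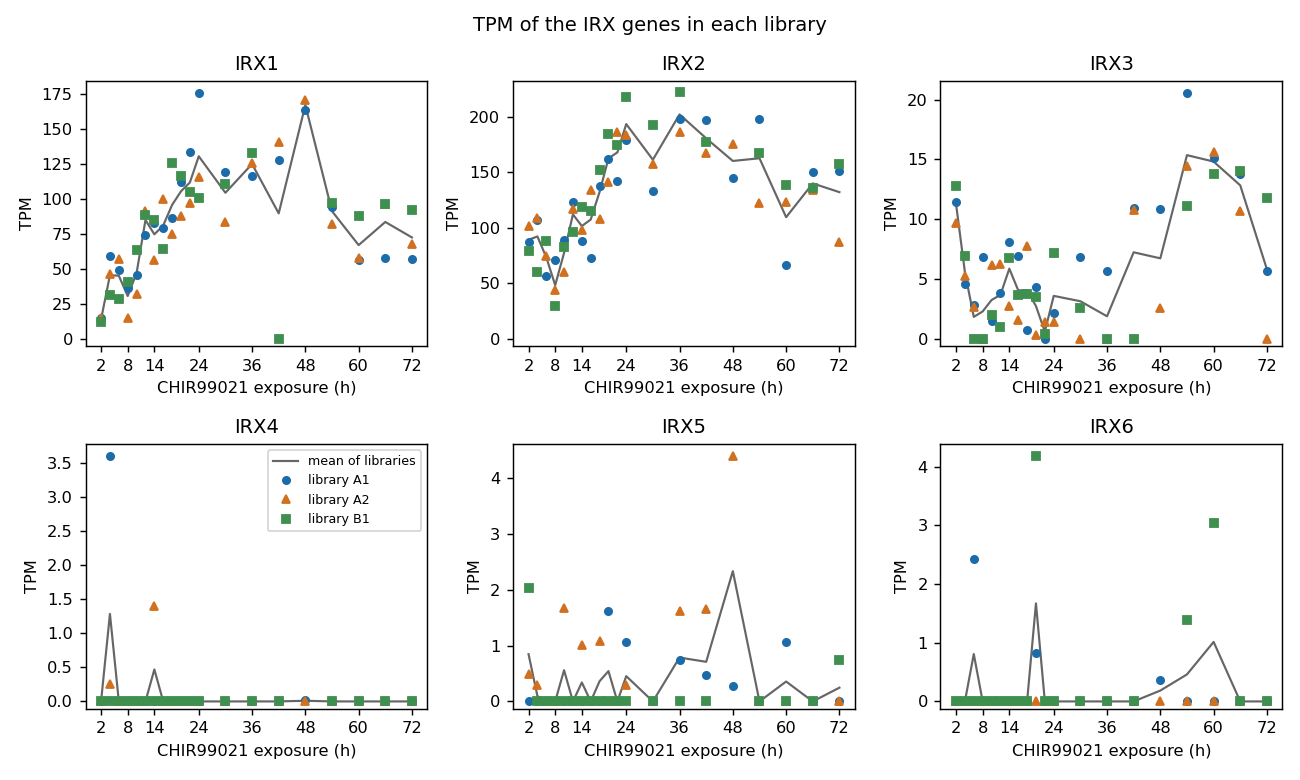
TPM of each IRX gene (vertical axes, each with its own scale) against hours of CHIR99021 exposure (horizontal axes); symbols are single libraries and the line joins the means of 3 libraries (2 at 48 h). IRX1 starts near 14 TPM at 2 h and IRX2 near 89 TPM, both are higher at 24 h than at 2 h, IRX3 is low between 6 and 36 h and highest at 54 h, and IRX4, IRX5 and IRX6 lie at 0 in most libraries.

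Change over the 20 exposures was tested with limma on log2(TPM + 1), as an F-test on a smooth curve, with Benjamini-Hochberg adjustment over the 15305 genes that had at least 1 TPM in at least 3 libraries. IRX4 did not pass that filter, so 5 of the 6 members were tested. IRX2, IRX1 and IRX3 differed along the exposures, with adjusted p = 8.09e-11 for IRX2, 0.00081 for IRX1 and 0.0142 for IRX3. IRX5 and IRX6 did not pass, with adjusted p = 0.431 and 0.986. Across all genes tested 36.8% were called. The IRX3 call was lost without the A1 libraries (adjusted p = 0.236) or with a pseudocount of 0.1 (adjusted p = 0.210), and the IRX1 call was lost without A1 (adjusted p = 0.052) or without 2 h (adjusted p = 0.0565).

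IRX2 was the most abundant Iroquois transcript. In chick, Irx2 acts with FGF8 signalling in forming the cerebellum. IRX2 had 87.1, 101 and 79.4 TPM at 2 h, 71.3, 43.6 and 29.8 TPM at 8 h, and 179, 183 and 218 TPM at 24 h. At 36 h it had 198, 186 and 223 TPM, and at 72 h it had 151, 87.5 and 158 TPM. The 8 h values all lie below the 2 h values, and the 24 h and 36 h values all lie above both. The lowest time-point mean of IRX2 was 48.2 ± 21.1 TPM at 8 h and its highest was 202 ± 18.7 TPM at 36 h (SD, n = 3 each). As 8 h and 36 h are these extremes, the separation is partly set by naming them. The share of all genes so separated was not computed. Some other genes, such as PBX2 (215 TPM) and MEIS1 (40.5 TPM), also had their lowest mean at 8 h. PAX6 and other genes did not.

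IRX1 came next in level and was lowest at 2 h. In Xenopus, Irx1 takes part in neural plate and kidney tubule patterning. IRX1 had 14.6, 14.8 and 11.9 TPM at 2 h, 58.8, 46.0 and 31.4 TPM at 4 h, and 36.4, 15.0 and 40.2 TPM at 8 h. At 24 h it had 175, 115 and 100.3 TPM, and at 48 h its 2 libraries had 163 and 171 TPM. At 72 h it had 57.2, 67.6 and 92.2 TPM. Every value at 24 h and 48 h exceeded every value at 72 h, and the 2 h values were the lowest of the course apart from the 0 in the 42 h B1 library. The 48 h mean was the highest of any exposure, so its separation from 72 h is partly set by naming it. The highest IRX1 value fell at different exposures by label, at 24 h in A1, 48 h in A2 and 36 h in B1.

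IRX3 ran another way. In chick, Irx3 marks neural progenitors on the dorsal side of the motor neuron domain and represses Olig2. IRX3 had 11.4, 9.65 and 12.8 TPM at 2 h, 6.85, 0 and 0 TPM at 8 h, and 0, 1.39 and 0.380 TPM at 22 h. At 54 h it had 20.5, 14.4 and 11.1 TPM, at 60 h 15.1, 15.6 and 13.8 TPM, and at 72 h 5.66, 0 and 11.8 TPM. The 2 h and 60 h values all exceeded the 8 h and 22 h values, while the 72 h values were scattered. The 22 h mean (0.590 TPM) was the lowest of any exposure, so this separation is partly set by naming it. The 0 at 72 h was in A2, a library with few detected genes. The highest IRX3 value was at 54 h in A1, at 60 h in A2 and at 66 h in B1.

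The promoters of IRX1 and IRX2 are shown because these 2 genes hold most of the family's RNA. Both were also higher in the first-day window than in the early window. The RefSeq promoter table (GRCh38.p14) had entries for IRX1, IRX2 and IRX4. The bases before the start of IRX1, chr5:3595582-3595831 on the plus strand, are given first, with capitals marking ATCAAAG, the reverse complement of CTTTGAT. The bases between the start of IRX2 and that of the divergent gene C5orf38, chr5:2751678-2751892, are given on the minus strand, with capitals marking CCAAT.
IRX1: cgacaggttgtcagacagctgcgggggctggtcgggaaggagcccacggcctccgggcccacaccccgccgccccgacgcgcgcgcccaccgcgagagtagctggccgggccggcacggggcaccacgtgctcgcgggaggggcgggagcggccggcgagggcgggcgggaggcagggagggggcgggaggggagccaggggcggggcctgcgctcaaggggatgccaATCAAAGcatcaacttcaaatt
IRX2: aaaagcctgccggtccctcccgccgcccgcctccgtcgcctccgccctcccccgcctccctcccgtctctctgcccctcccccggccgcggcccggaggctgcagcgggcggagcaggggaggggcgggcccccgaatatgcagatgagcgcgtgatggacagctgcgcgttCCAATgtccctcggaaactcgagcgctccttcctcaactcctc
CTTTGAT and CTTTGAA are forms of the sequence that TCF and LEF factors, the partners of beta-catenin, are known to bind. AGGTCA and AGTTCA are half-sites of the element bound by retinoic acid receptors, and CCAAT and TATAAA are general promoter elements. Each was searched on both strands of the 300 bases around the start. The IRX1 window held 1 match to CTTTGAT, which begins 22 bases before the start, and 1 match to CCAAT, which overlaps it. The IRX2 window held 1 match, to CCAAT, which begins 43 bases before the start, and the window of the divergent gene shares that match. The other motifs had no match in these windows. Of the 35116 promoters in the table, 2.62% held CTTTGAT or its reverse complement and 34.6% held CCAAT or its reverse complement. G and C made up 76.0% of the IRX1 window and 73.3% of the IRX2 window, against a median of 58.7% over all promoters. A match is a description of these letters and not evidence of binding.

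IRX1 and IRX2 rose within the first day of CHIR99021. The first-day window was set against the early window, each with 4 exposures. IRX1 had a lowest value of 74.9, a median of 108 and a highest of 175 TPM in the first-day window, against 11.9, 33.9 and 58.8 TPM in the early window. The windows did not overlap, and the share of all genes without overlap was not computed. The mean was 111 ± 26.5 TPM in the first-day window and 33.7 ± 17.0 TPM in the early window (SD, n = 12 each), a ratio of 3.29. The log2(TPM + 1) difference was 1.84 (SE 0.38, adjusted p = 0.00031). IRX2 had a lowest value of 108, a median of 168 and a highest of 218 TPM in the first-day window, against 29.8, 77.1 and 109 TPM in the early window. The lowest value of the longer exposures lay just under the highest of the shorter ones. The mean was 164 ± 29.5 TPM in the first-day window and 75.8 ± 24.9 TPM in the early window, a ratio of 2.17, and the log2 difference was 1.17 (SE 0.13, adjusted p = 2.3e-09). IRX3 had 2.74 ± 2.63 TPM in the first-day window and 5.24 ± 4.42 TPM in the early window, with overlapping windows, a log2 difference of -0.57 and an adjusted p of 0.417 (-1.88 and 0.0432 with 2 exposures per window). IRX5 and IRX6 averaged 0.340 and 0.418 TPM in the first-day window, against 0.236 and 0.202 TPM in the early window, and neither passed. Of the 5 members tested, 2 were thus called higher and 0 lower. Among all genes tested 20.0% were called, 10.5% higher and 9.45% lower. In bulk RNA, fewer cells that express a gene and less RNA per cell cannot be told apart.

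Marker levels of other cell types differed between the same windows. The summed TPM of 11 epithelium and surface ectoderm markers was 464.7 to 1269 in the first-day window, against 1416 to 3867 in the early window, and 11 of the 11 fell. The sum of 9 endoderm markers was 4.82 to 63.3 TPM in the first-day window, against 66.8 to 250.5 TPM in the early window. Of the 7 endoderm markers tested 5 fell, and SOX17 and NKX2-1 were at 0 in both windows. Neural markers were higher. Of 8 neuron markers 6 rose, with sums of 246.9 to 317.5 TPM in the first-day window and 93.1 to 272.6 TPM in the early window, and 8 of 10 neural progenitor markers rose. The part of these cell types in the IRX result was not tested.

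**Figure D2:**
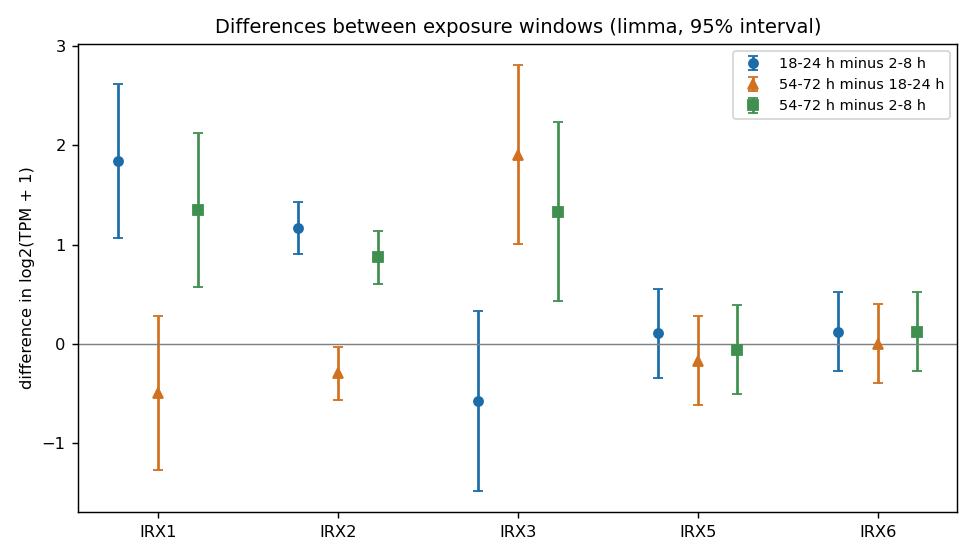
Difference in log2(TPM + 1) between exposure windows (vertical axis) for the 5 tested IRX genes (horizontal axis); points are limma estimates and bars 95% intervals, with circles for 18-24 h minus 2-8 h, triangles for 54-72 h minus 18-24 h and squares for 54-72 h minus 2-8 h. IRX1 (1.84) and IRX2 (1.17) lie above 0 for the first difference and IRX3 (1.90) for the second, while all intervals of IRX5 and IRX6 include 0.

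IRX3 was higher in the late window than in the first-day window. It had a lowest value of 0, a median of 13.8 and a highest of 20.5 TPM in the late window, against 0, 1.79 and 7.74 TPM in the first-day window. The windows overlapped only through the late libraries of 72 h. The mean was 12.2 ± 5.20 TPM in the late window and 2.74 ± 2.63 TPM in the first-day window (SD, n = 12 each), a ratio of 4.45, with a log2 difference of 1.90 (SE 0.45, adjusted p = 0.0020). It was the 1 member called, against 12.5% of all genes called, 5.43% higher and 7.08% lower. The IRX3 call was lost without the A1 libraries (difference 1.58, adjusted p = 0.0945), with a pseudocount of 0.1 (adjusted p = 0.0591) and with 2 exposures per window (adjusted p = 0.0853). Over the same windows 1 of 11 epithelium and surface ectoderm markers (TFAP2A) and 1 of 7 tested endoderm markers (HNF4A) fell. Their sums were 485.0 to 796.1 and 0 to 27.5 TPM in the late window, against 464.7 to 1269 and 4.82 to 63.3 TPM in the first-day window. Of 8 neuron markers 3 rose (ELAVL3, ELAVL4 and NHLH1), with sums of 128.0 to 418.5 TPM in the late window and 246.9 to 317.5 TPM in the first-day window. Of 10 neural progenitor markers FABP7, PTPRZ1 and SOX1 rose and PAX6 and SOX3 fell. Of the heart and lateral mesoderm markers, 3 were tested and ACTA2 rose. The sum of all 8 was 27.4 to 95.7 TPM in the late window, against 1.73 to 26.6 TPM in the first-day window. These ranges did not overlap, but by a narrow gap. In the late window 6 of the 8 (MYH6, MYL7, NKX2-5, HAND1, HAND2 and TBX5) were at 0 in all libraries. The late sum was thus TNNT2 and ACTA2 alone. Of 5 tested paraxial mesoderm markers FOXC1 and MEOX1 fell. The part of these cell types in the IRX3 result was not tested. A setting chosen after the values were seen compared the late window with the 11 libraries of the second-day window, where IRX3 averaged 12.2 ± 5.20 TPM in the late window and 4.56 ± 4.65 TPM in the second-day window. The log2 difference was 1.57 (adjusted p = 0.0308), and 5.57% of all genes were called. It did not pass without the 42 h B1 library, where IRX3 is at 0 (difference 1.28, adjusted p = 0.0795), without A2 (1.49, adjusted p = 0.166), without B1 (1.04, adjusted p = 0.326) or with a pseudocount of 0.1 (adjusted p = 0.103).

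IRX1 and IRX2 were lower, by mean, in the late window than in the first day. IRX1 had a lowest value of 56.0, a median of 84.8 and a highest of 97.3 TPM in the late window, against 74.9, 108 and 175 TPM in the first-day window. The log2 difference was -0.49 (SE 0.38, adjusted p = 0.483) with all libraries. Without the 42 h B1 library, which lies in neither window, the difference was the same and the adjusted p was 0.0145. Leaving it out, here and below, was not planned but chosen after the values were seen. That library has IRX1 at 0 and enters the estimate of spread that all comparisons share: the spread of IRX1 between libraries of 1 exposure was 0.99 with it and 0.36 without it on the log2 scale. IRX2 averaged 136 ± 34.8 TPM in the late window and 164 ± 29.5 TPM in the first-day window. Its log2 difference was -0.30 (SE 0.13, adjusted p = 0.148), and it passed only after quantile normalization (-0.37, adjusted p = 0.0417). Against 30 to 48 h, IRX1 averaged 78.4 ± 17.7 TPM in the late window and 117 ± 45.7 TPM in the second-day window (n = 12 and 11). Its log2 difference was -0.17 (adjusted p = 0.874) with all libraries and -0.76 (adjusted p = 0.00072) without 42 h B1. IRX2 averaged 136 ± 34.8 TPM in the late window and 178 ± 25.9 TPM in the second-day window, with a log2 difference of -0.41 and an adjusted p of 0.0683 (0.0266 after quantile normalization and 0.0317 after median-ratio scaling). The call on a late decline of IRX1 therefore rested on 1 library of the second-day window.

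All 3 main members were higher in the late window than in the early window, a comparison that shares its libraries with both above. The log2 difference was 1.35 for IRX1 (SE 0.38, adjusted p = 0.0055), 0.87 for IRX2 (SE 0.13, adjusted p = 7.5e-07) and 1.33 for IRX3 (SE 0.45, adjusted p = 0.0194). Among all genes 30.1% were called, 14.3% higher and 15.8% lower. Mean levels of IRX1 were 78.4 TPM in the late window and 33.7 TPM in the early window, and those of IRX3 were 12.2 and 5.24 TPM in that order. The IRX3 call depended on which exposures stood for the windows. With 66 and 72 h set against 2 and 4 h its difference was -0.20 (adjusted p = 0.861), with IRX3 means of 5.81 TPM at 72 h and 11.3 TPM at 2 h. The IRX3 call was also lost without A1 (1.49, adjusted p = 0.057), without B1 (0.96, adjusted p = 0.206), without 6, 30 and 54 h (0.87, adjusted p = 0.222) and with a pseudocount of 0.1 (adjusted p = 0.0846). The IRX1 call was lost without A2 (1.33, adjusted p = 0.0771), without 2 h (1.00, adjusted p = 0.0699) and with a pseudocount of 0.1 (adjusted p = 0.0542).

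The exposures of 4 to 8 h were set against 2 h, in a comparison chosen after the values were seen. IRX1 ranged from 15.0 to 58.8 TPM in the 9 libraries of 4 to 8 h, against 11.9 to 14.8 TPM at 2 h, without overlap but by a narrow gap. The share of all genes without overlap in this comparison was not computed. The log2 difference of IRX1 was 1.39 (SE 0.63), with an adjusted p of 0.227 with all libraries and 8.27e-05 without 42 h B1. The omission, like the comparison, was chosen after the values were seen. IRX3 ranged from 0 to 6.95 TPM at 4 to 8 h, against 9.65 to 12.8 TPM at 2 h, also without overlap, with a log2 difference of -1.96 (SE 0.73, adjusted p = 0.117). Without the 3 libraries that had under 10000 genes its adjusted p was 0.0371. IRX2 averaged 71.3 ± 27.1 TPM at 4 to 8 h and 89.2 ± 11.1 TPM at 2 h, and its windows overlapped (log2 difference -0.42, adjusted p = 0.326). With all libraries 0 of the 5 members were called by limma, against 5.40% of all genes. Of the 5, 2 (IRX1 and IRX3) had an unadjusted p under 0.05 (0.0315 and 0.0104), and the share of all genes under that unadjusted limit was not computed. The median log2 difference of all genes was -0.14 here. The 11 epithelium and surface ectoderm markers were also lower, 7 of the 11 by the same test, and their part in the IRX values was not tested.

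No IRX gene was called at 30 h against 24 and 36 h or at 54 h against 48 and 60 h, where 4.50% and 8.35% of all genes were called. IRX2 had 161 ± 30.0 TPM at 30 h, against 198 ± 18.5 TPM at 24 and 36 h (n = 3 and 6), with a log2 difference of -0.30 and an adjusted p of 0.572. IRX3 had 15.4 ± 4.77 TPM at 54 h, against 11.6 ± 5.35 TPM at 48 and 60 h (n = 3 and 5), with a log2 difference of 0.65 and an adjusted p of 0.759. The unadjusted p was under 0.05 for 0 of the 5 members at 30 h and for 1, IRX5, at 54 h (0.0352). IRX5 was at 0 in all 3 libraries of 54 h, and the highest value among the neighbours was 4.40 TPM in 48 h A2. The share of all genes under the unadjusted limit was not computed.

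Whether 2 members changed by unequal amounts was tested within libraries, by a two-sided permutation test (100000 permutations) of the difference between 2 genes in log2(TPM + 1). There were 10 pairs and 3 window comparisons, 30 tests in all, of which 15 passed after Benjamini-Hochberg adjustment, 11 of them against IRX5 or IRX6. With a pseudocount of 0.1, 3 passed, and 8 to 13 passed when 1 label was left out. IRX5 and IRX6 were at 0 in 42 and 53 of 59 libraries, so those 11 tests largely repeat the window change of the other member. The test also treats the libraries of the 4 exposures in a window as exchangeable. In the first-day against the early window, IRX1 gained 2.42 on IRX3 (adjusted p = 0.0022) and IRX2 gained 1.74 on IRX3 (adjusted p = 0.0039). In the late against the first-day window the order turned: IRX1 lost to IRX3 with a difference of -2.40 and IRX2 with -2.20 (adjusted p = 0.0012 for both). The first pair of results did not pass without A1 (adjusted p = 0.0702 and 0.104) or with a pseudocount of 0.1 (adjusted p = 0.123 and 0.205). IRX1 and IRX2 were not separated by this test, with differences of 0.68 in the first day (adjusted p = 0.0636, and 0.0284 without 6, 30 and 54 h), -0.20 after it (adjusted p = 0.247) and 0.48 from the early to the late window (adjusted p = 0.208).

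The make-up of the family differed along the course. At 2 h IRX2 made up 77.3 ± 2.73% of the summed IRX TPM, IRX1 12.0 ± 0.84% and IRX3 9.93 ± 2.20% (SD, n = 3). At 24 h IRX2 made up 59.4 ± 8.55% and IRX1 39.4 ± 9.12%. At 48 h IRX1 made up 49.7% and IRX2 47.5% over 2 libraries, and at 60 h IRX1 made up 35.2 ± 5.56% and IRX2 56.0 ± 7.41%. IRX1 was thus a small part of the sum at 2 h and close to IRX2 at 48 h. The summed TPM of the family was 115 ± 32.6 in the early window, 278 ± 45.6 in the first-day window and 227 ± 48.7 in the late window (SD, n = 12 each).

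**Figure D3:**
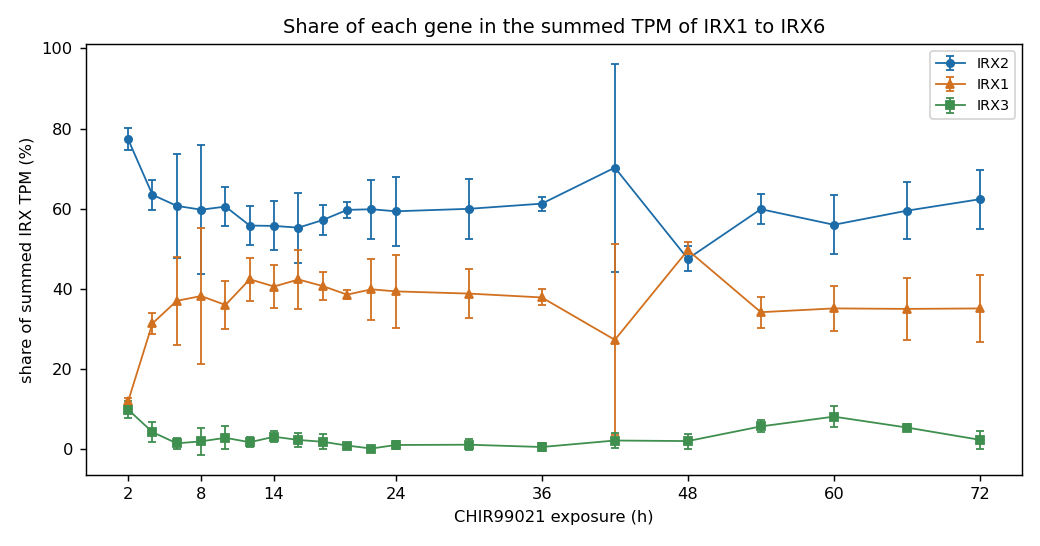
Share of IRX2, IRX1 and IRX3 in the summed TPM of the 6 IRX genes (vertical axis, percent) against hours of CHIR99021 exposure (horizontal axis); points are means and bars SD over 3 libraries (2 at 48 h). IRX2 holds 77.3% at 2 h, IRX1 has a share near that of IRX2 at 48 h, and the wide bars at 42 h come from the B1 library, where IRX1 is listed at 0.

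IRX4, IRX5 and IRX6 were low and at 0 in most libraries. IRX4, which sets ventricular identity in the mouse heart, was at 3.61 TPM in 4 h A1, 0.250 TPM in 4 h A2, 1.41 TPM in 14 h A2 and 0.020 TPM in 48 h A1, and at 0 elsewhere. IRX5, known in mouse for roles in the heart and in retinal bipolar cells, was above 0 in 3 of 12 libraries in the early window, 4 of 12 in the first-day window, 6 of 11 in the second-day window and 2 of 12 in the late window. At 36, 42 and 48 h it was above 0 in both A1 and A2, at 0.270 to 4.40 TPM, and its highest value was 4.40 TPM in 48 h A2. IRX6, also known from mouse retinal bipolar cells, was highest at 4.18 TPM in 20 h B1. Values this low cannot be told from 0 without the depth. The summed TPM of 8 heart and lateral mesoderm markers was 0 to 91.5 in the early window, 1.73 to 26.6 in the first-day window, 0 to 22.4 in the second-day window and 27.4 to 95.7 in the late window. HAND2 was at 0 in all libraries of each window. In the late window MYH6, MYL7, NKX2-5, HAND1 and TBX5 were also at 0 in all libraries, so the late sum was TNNT2 and ACTA2 alone. The part of these markers in the IRX4 values was not tested.

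C5orf38, listed by RefSeq as IRX2-DT, starts on the other strand from IRX2, with 215 bases between the 2 starts, the stretch of promoter printed above. It was below IRX2 in 59 of 59 libraries. It had a lowest value of 0, a median of 13.0 and a highest of 21.1 TPM in the first-day window, against 0, 3.13 and 7.70 TPM in the early window. The windows overlapped, and it was at 0 in 1 of 12 libraries in the first-day window and in 4 of 12 in the early window. The mean was 12.3 ± 5.48 TPM in the first-day window and 3.48 ± 3.30 TPM in the early window, and the log2 difference was 1.84 (SE 0.55, adjusted p = 0.0135). The call was lost without A1 (1.79, adjusted p = 0.142), without B1 (1.70, adjusted p = 0.05002) and with 2 exposures per window (1.74, adjusted p = 0.158). Across the 20 time-point means its Pearson r was 0.82 with IRX2, 0.55 with IRX1 and 0.26 with IRX3, as a description of means that share libraries. The sources used here do not say whether the counting used the strand.

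**Figure D4:**
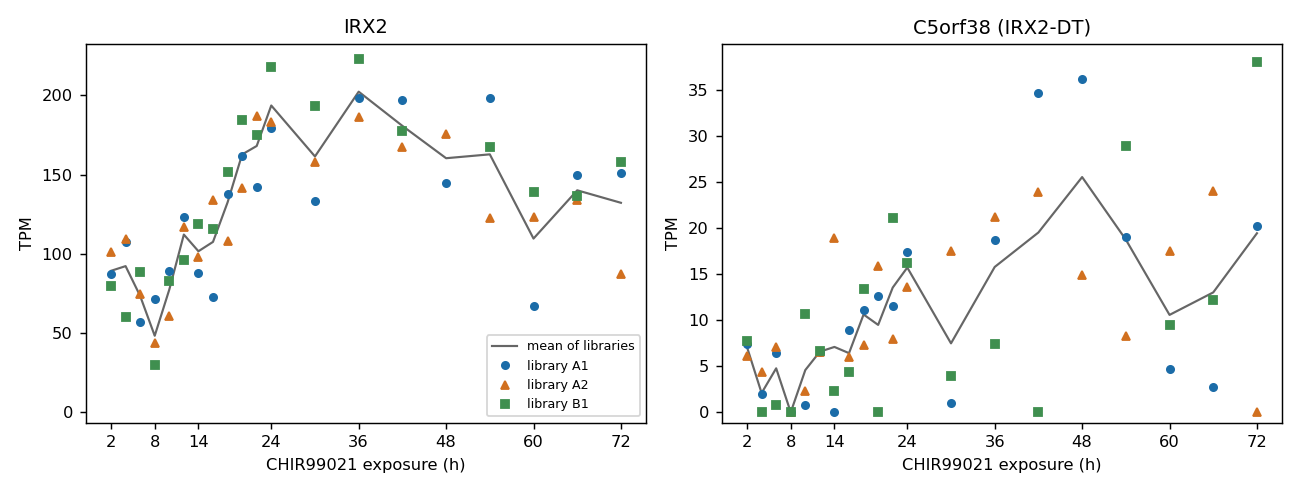
TPM of IRX2 (left) and of its divergent neighbour C5orf38 (right) against hours of CHIR99021 exposure; symbols are single libraries and the line joins time-point means. Both have their lowest mean at 8 h (48.2 TPM for IRX2 and 0 TPM for C5orf38), and C5orf38 is more scattered after 24 h. A lowest mean at 8 h is not particular to this pair, as PBX2 and MEIS1 also have it.

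Other genes beside the clusters were followed in the same windows. Of 7 tested genes near IRX1, IRX2 and IRX4, C5orf38 was the 1 called in the first-day window against the early window (0 without A1, without B1 or with 2 exposures per window), where 20.0% of all genes were called. The median log2 difference of the list was -0.13, against 0.01 over all genes. Of 7 tested genes near IRX3, IRX5 and IRX6, 3 rose (CHD9, MMP2 and RBL2) and 0 fell, with a median log2 difference of 0.38. Without A2, 1 was called, and without A1 or with a pseudocount of 0.1, 2 were. FTO, the direct neighbour of IRX3 in RefSeq, did not pass in any of the 3 windows' comparisons. In the F-test over the course it was called (adjusted p = 0.0475). That test called 5 of 7 genes of the chromosome 5 list and 6 of 7 of the chromosome 16 list, with 36.8% of all genes called. Later, in the late against the first-day window, MMP2 of the chromosome 16 list rose and RPGRIP1L fell, with 12.5% of all genes called, and neither was called without A1 or without A2.

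Genes whose course was most like each member were found by Pearson correlation over 20 time-point means, among 13170 genes with a highest mean of at least 5 TPM. For IRX2 these were NELL2 (r = 0.95), STON2 (0.93) and DGKB (0.92). NELL2, a secreted neural glycoprotein, had a mean of 173 ± 29.8 TPM at 2 h and of 113 ± 42.8 TPM at 8 h, and at 24 h it had 408 ± 19.7 TPM (SD, n = 3 each). For IRX3 they were LINGO2 (0.78), HMGA1 (0.78) and SLC44A3 (0.77), but without 42 h B1 SLC44A3 had r = 0.52 and ROR2 (0.78) took the third place. For IRX1 they were KCNH8 (0.86), NEFM (0.81) and HOXA4 (0.81), but without 42 h B1 they were MAL (0.95), HOXB4 (0.94) and NEFM (0.91). Between members r was 0.63 for IRX1 with IRX2, -0.18 for IRX1 with IRX3 and 0.03 for IRX2 with IRX3, and without 42 h B1 the first was 0.82. Means of 1 time share libraries, so these are descriptions.

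Among factors that share borders with Iroquois genes in vertebrate embryos, those of the front of the brain were low or at 0 in the first-day window. OTX2, a forebrain and midbrain factor that marks the territory in front of the hindbrain, was at 0 in all 12 libraries of the first-day window and reached 39.1 TPM in the early window, with a mean of 31.4 ± 6.71 TPM at 2 h. FEZF1 and FEZF2, forebrain factors that oppose Irx1 in mouse, were at 0.383 and 0.026 TPM in the first-day window and at 2.67 and 0.928 TPM in the early window. SIX3, which in chick opposes Irx3, was at 0 in all libraries of the early, first-day, 30 to 48 h and late windows. Over these 15 genes, 8 could be tested, and in the first-day window against the early window DBX2 rose and OTX2, FEZF1 and FEZF2 were among those that fell, with a median log2 difference of -0.31 against 0.01 over all genes.

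In the same list GBX2 rose and PAX6 was among the genes that fell in the late against the first-day window. GBX2, an anterior hindbrain factor, averaged 6.52 ± 5.47 TPM in the late window and 0.885 ± 1.96 TPM in the first-day window (adjusted p = 0.00076). PAX6, a neural progenitor factor, averaged 142 ± 26.1 TPM in the late window and 196 ± 21.0 TPM in the first-day window (adjusted p = 3.0e-06). OLIG2, the gene that Irx3 represses in chick, was at 0 in all 12 libraries of the first-day window and all 11 of the second-day window, so no contrast with IRX3 could be drawn there. In the late window its mean was 1.11 ± 1.92 TPM at 66 h (SD, n = 3) and 0 TPM at 54, 60 and 72 h. In the early window it was 0.110 TPM at 4 h and 0 TPM at 2, 6 and 8 h. OLIG2 did not pass the filter and was not tested.

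The other TALE homeobox genes, whose MEIS and PBX members are partners of HOX factors, were followed as a list. Of 11 tested, MEIS3, PBX3 and PKNOX2 were among those that rose and TGIF1 fell in the first-day window against the early window, with a median log2 difference of 0.04. Between the first-day and the late window MEIS1 was among the genes that rose, and MEIS2, PBX3 and TGIF1 fell. PBX3 was not called in the F-test over the course (adjusted p = 0.123). Its mean was 72.2 TPM at 2 h, 23.1 TPM at 6 h and 56.0 to 64.1 TPM at 18 to 24 h. At 54 h it was 18.3 TPM and at 66 h 57.2 TPM, so neither window call of PBX3 describes a steady change. The summed TPM of the 12 listed genes was 1417 to 2039 in the first-day window and 977.0 to 1949 in the early window.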

How the data were processed

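RNA sequencing libraries were processed by the authors to TPM per gene symbol. The submitters' processing notes name CASAVA 1.8.2, Bowtie 0.12.8 and RSEM 1.2.3 with the hg19 build. The sources used here do not give the gene annotation, and reads shared with the pseudogenes IRX1P1 and IRX4P1 could have been split. The deposited TPM summed to between 999997.45 and 1000000.76 in each library, no 2 libraries were identical, and no counts were used. From TPM, log2(TPM + 1) was computed, and genes with at least 1 TPM in at least 3 libraries were tested with limma 3.58.1 (R 4.3.3, eBayes with trend). Means of the 20 exposures were fitted to all 59 libraries (39 residual df) and windows were contrasted. The course was tested on a natural spline with 4 df. The adjusted p threshold was 0.05. Pairs of members were tested by permutation (numpy in Python 3.11.15). The tests were tried on simulated data. The members and gene lists were chosen with earlier results of these data known, and none is independent support. Named genes were the 6 members, genes of the lists, and the 3 most similar genes for members with a highest mean of at least 5 TPM. MAL, HOXB4 and ROR2 follow from the same measure without 1 library. Promoters are RefSeq sequences of GRCh38.p14. matplotlib 3.10.9 (Python 3.11.15) drew the figures. Some members of the lists of border factors and TALE genes are not reported here.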

Additional observations from a re-analysis of the deposited data

How the results depend on the processing

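With 2 exposures per window, the first-day against the early window had 1802 genes called, with IRX3 at -1.88 (adjusted p = 0.0432) and IRX5 at -0.19. In the same setting the late against the first-day window had IRX3 at 1.68 (0.0853) and C5orf38 at -0.58, and the late against the early window had IRX3 at -0.20. With a pseudocount of 0.1, IRX3 was at 2.42 in the late against the first-day window (adjusted p = 0.0591). IRX1 and IRX3 were at 1.39 and 1.95 in the late against the early window (0.0542 and 0.0846) and at 0.10 and 2.46 in the late against the second-day window (0.961 and 0.103). The course of IRX3 had an adjusted p of 0.210, and 3 pair tests passed. In these, IRX1 and IRX3 differed by 2.35 in the first-day against the early window (adjusted p = 0.123) and by -0.57 in the late against the early window, and IRX2 and IRX3 by 1.64 in the first-day against the early window (0.205). Quantile normalization put IRX2 at -0.37 in the late against the first-day window and -0.44 against the second-day window (0.0266), and IRX5 at 0.061 in the late against the early window. Median-ratio scaling put IRX2 at -0.42 in the late against the second-day window (0.0317), IRX6 at -0.0097 in the late against the first-day window, and C5orf38 at -0.038 at 54 h.

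Without the 3 libraries under 10000 genes, 2873 genes were called in the late against the first-day window, 1707 at 30 h, 2598 at 54 h, 1460 at 4 to 8 h against 2 h and 1331 in the late against the second-day window. IRX1 was at -0.48 (0.0138), 1.47 (2.07e-05) and -0.75 (0.00063) in the first, the fourth and the fifth of these, IRX3 was at -2.005 in the fourth, and the pair IRX1 and IRX3 differed by -0.35 in the late against the early window. Without 42 h B1 alone, IRX1 was at -0.49, 1.39 and -0.76 and IRX3 at 1.28 in the late against the second-day window. That setting was chosen after the values were seen. Without 2 h, IRX1 and IRX5 were at 1.00 and 0.11 in the late against the early window, and the course of IRX1 had an adjusted p of 0.0565. Without 6, 30 and 54 h, IRX3 was at 0.87 in the late against the early window (0.222), C5orf38 at -0.14 in the late against the first-day window, and the pair IRX1 and IRX2 at 0.85 in the first day (0.0284).

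Leaving out each replicate label in turn gave 1594 to 2402 genes called in the first-day against the early window, 908 to 1757 in the late against the first-day window and 2956 to 4227 in the late against the early window. It gave 191 to 481 at 30 h, 210 to 1145 at 54 h, 225 to 407 at 4 to 8 h, 328 to 727 in the late against the second-day window, and 3232 to 5291 for the course. In the first-day against the early window IRX5 ranged over -0.14 to 0.37. In the late against the first-day window IRX1 ranged over -0.61 to -0.28, IRX3 over 1.58 to 2.17 and C5orf38 over -0.52 to 0.35. Against the early window, the late window had IRX1 range over 1.12 to 1.60, IRX3 over 0.96 to 1.54 and IRX5 over -0.22 to 0.031. At 30 h IRX3 ranged over -0.16 to 0.54. At 54 h IRX2 ranged over -0.082 to 0.62, IRX6 over -0.11 to 0.12 and C5orf38 over -0.21 to 0.53. At 4 to 8 h IRX1 ranged over 1.27 to 1.51. Against the second-day window, the late window had IRX1 range over -0.88 to 0.24, IRX3 over 1.04 to 2.19 and C5orf38 over -0.97 to 0.52. The course had adjusted p of 6.05e-08 to 0.052 for IRX1 and 0.00901 to 0.236 for IRX3. Pair tests passed numbered 8 to 13, with IRX1 and IRX2 at -0.33 to 0.048 after the first day, IRX1 and IRX3 at 1.98 to 2.73 in the first day and -0.21 to 0.16 from early to late, and IRX2 and IRX3 at 1.36 to 1.96 in the first day. The causes were not tested, beyond fewer libraries in the fits that leave some out.

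Of the pairs of libraries with 1 label, 1.45% had deviations correlated over 0.1 (mean correlation 0.0066), so the labels were not taken to pair them. As a hint from the data and not the design, 32 of 59 libraries were closest to their own label, more than an even split over 3 labels gives. With the replicate block, 3050 genes were called in the first-day against the early window, and IRX1, IRX2 and IRX3 kept their calls in the 3 window comparisons and the course. Their differences in the first day were 1.84, 1.17 and -0.57. Over all alternatives, 449 log2 differences kept direction and side of the threshold, 25 changed sign, 23 no longer passed and 15 newly passed. TPM without depth give no limit of detection for IRX4, IRX5 and IRX6.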
